A study of Mus musculus with 278 samples.

Results

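The 40 genes described here encode proteins of the G2 phase and of mitosis: cyclins and CDK1, mitotic kinases, the spindle checkpoint, the kinetochore, spindle motors, the cytokinesis machinery, activators of the anaphase-promoting complex and proteins of mitotic chromosomes. They were chosen by name, and all 40 were among the 23354 genes of the deposited matrix. Genes were tested where 10% or more of the cells had an FPKM of at least 1, a filter that 10452 genes and all 40 members passed. FPKM count fragments per unit of transcript length and per unit of the library's mapped fragments, and so are relative levels within a cell.

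Progress from G2 into mitosis is driven by CDK1 bound to cyclin A or cyclin B, which CDC25 phosphatases activate, and exit from mitosis follows when the anaphase-promoting complex, switched on by CDC20, marks cyclin B for destruction. Transcripts of these genes rise late in the cell cycle, driven by the MuvB complex with B-MYB and FOXM1 and by NF-Y, and in quiescent cells MuvB as part of the DREAM complex holds them low. In the neonatal testis, spermatogonia divide repeatedly as the stem cell pool and the first differentiating cells form.

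The 278 libraries each come from 1 spermatogonium of untreated mice at postnatal day 6 that carried an EGFP reporter of Id4. Id4 encodes an inhibitor of DNA binding protein that marks spermatogonial stem cells. Every cell was EGFP-positive by flow sorting, so no EGFP-negative cells stand as a control. Each preparation pooled the testes of at least 2 pups, and cells were captured and imaged on Fluidigm C1 chips, where dead cells, multiplets and wells with debris were left out. By EGFP brightness the cells were placed in 4 quartiles: Q1, the brightest, with 74 cells, Q2 with 70, Q3 with 74 and Q4, the dimmest, with 60. A passage of the labels' protocols calls the lower quartile Q2, and the order used here is that of the series design. The series design gives 5 preparations without assigning cells to them, so a cell's preparation was read from the run number in its title. So read, the 5 preparations gave 26, 62, 37, 75 and 78 cells. Each held all 4 quartiles, from 4 cells (preparation 1, Q4) to 20. Preparation is the replicate here (n = 5).

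The median depth, estimated from the smallest steps of FPKM, was 619024 mapped fragments per cell (lowest 204514, highest 1645223), so that 1 fragment on a transcript of 2 kb was worth about 0.808 FPKM. Detected genes per cell averaged 6293 ± 931 among Q1 cells and 5732 ± 1305 among Q4 cells (SD over 5 preparations), and preparation 3 had 4437, against 5875 to 7148 in the other preparations. The labelled cell type was checked against its markers: the 13 germ cell markers were all detected, with a median of 12 and a minimum of 7 per cell. Of 12 Sertoli cell markers, Amh and Fshr were at 0 in every cell, and 10 were above 0 in some cell. Of 12 Leydig and peritubular markers, 6 were at 0 in every cell (Cyp11a1, Cyp17a1, Hsd3b1, Insl3, Lhcgr and Dcn) and 6 were not. Of 12 endothelial and blood markers, 10 were in the matrix, with Lyz2 at 0 in every cell and 9 above 0 in some cell. Clu, Star, Pdgfra, Pecam1 and Cd68 were the markers of these lists with an FPKM of at least 1 in 10% or more of cells. The median cell held 0 markers of each of these lists at that level. In all, 6 of the 278 cells held at least 3 markers of 1 other cell type. The comparison of Q1 with Q4, the slope, the module means, the share of high cells and the correlations among members are also given without them.

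The promoters show what these genes share that their selection by name did not use. RefSeq promoter windows of build GRCm38.p6, from 250 bases before the transcript start to 50 after it, were at hand for 33 of the 40 genes. Aurkb, Ccna2, Cdc25c, Dlgap5, Kif20a, Smc4 and Tpx2 had none in the table used. Both strands were searched for the letters of the cell cycle genes homology region (CHR), the element bound by MuvB complexes, as TTTGAA or TTCGAA, and for CCAAT, the box bound by NF-Y. CHR letters were found in 27 of 33 members (81.8%), against 15.9% of the 7880 tested genes with a window and 21.7% of all 27025 genes of the table. CCAAT was found in 25 members (75.8%), against 44.7% of tested genes and 41.1% of all genes. No CHR match overlapped a CCAAT match, and 25 of the 39 CHR matches began within 50 bases of the start, a share not counted for other genes. A match is a description of letters and not a bound site.

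In 22 members a CCAAT box lay upstream of CHR letters, with 9 to 153 bases between their starts and a median of 33. Where a gene had several such spacings, the smallest was taken. Boxes upstream at any distance were not counted over all tested genes. In 15 of the 33 members (45.5%), a CCAAT box began 20 to 50 bases upstream of CHR letters, against 1.54% of tested genes. This spacing was chosen after the positions had been seen, so it describes these windows and nothing further. Of 44 genes of DNA replication and the G1/S transition, 34 had a window. Of these, 17.6% had CHR letters and 5.88% the spaced pair. Other kinesins, spindle and cytokinesis genes were named for the pathway but are not among the 40. Of the 26 of them with a window, 65.4% had CHR letters and 34.6% the pair. The 100 bases before the transcript start are shown, 5′ to 3′ on the gene's own strand. They are given for members with CHR letters in that stretch and for Ccnb2, picked by name. Ube2c and Bub3 also have CHR letters there, but more of their stretch lay inside the annotated gene, and they were left out. Members with CCAAT boxes alone in the stretch are not shown, apart from Ccnb2. Mki67 has 1 match there and had the smallest p among the members in the comparison of quartiles. Capitals mark CHR or CCAAT letters, which read TTCAAA or ATTGG where they lie on the other strand.
Cdk1: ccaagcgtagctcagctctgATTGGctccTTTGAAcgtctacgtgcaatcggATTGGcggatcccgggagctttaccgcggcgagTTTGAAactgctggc
Ccnb2: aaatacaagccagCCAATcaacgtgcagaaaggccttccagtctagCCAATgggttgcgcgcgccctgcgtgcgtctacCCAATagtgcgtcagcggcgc
Kif11: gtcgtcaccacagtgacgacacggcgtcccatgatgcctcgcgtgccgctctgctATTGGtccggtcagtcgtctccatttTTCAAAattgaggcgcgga
Cdc20: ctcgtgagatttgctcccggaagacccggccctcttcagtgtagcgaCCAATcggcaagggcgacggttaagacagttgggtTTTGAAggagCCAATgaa
Top2a: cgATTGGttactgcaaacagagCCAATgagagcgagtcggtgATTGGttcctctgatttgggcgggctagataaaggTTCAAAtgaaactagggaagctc
Hmgb2: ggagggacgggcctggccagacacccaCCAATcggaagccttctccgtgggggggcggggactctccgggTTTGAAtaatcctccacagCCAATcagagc
Mki67: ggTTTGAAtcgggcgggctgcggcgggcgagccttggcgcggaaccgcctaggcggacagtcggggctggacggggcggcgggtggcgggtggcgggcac

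These windows are at chr10:69352913-69353012 (minus strand) for Cdk1, chr9:70421555-70421654 (minus) for Ccnb2, chr19:37376282-37376381 (plus) for Kif11, chr4:118437344-118437443 (minus) for Cdc20, chr11:99024190-99024289 (minus) for Top2a, chr8:57511743-57511842 (plus) for Hmgb2 and chr7:135716380-135716479 (minus) for Mki67. In Kif11, the motor that pushes spindle poles apart, a reversed CCAAT at -45 precedes a reversed CHR at -19, a spacing of 26 bases. Cdc20 has the pair at -53 and -18. Cdk1 has CHR letters at -71 and -15, each preceded by a reversed CCAAT. Ccnb2 shows 3 CCAAT boxes in the stretch printed, and its nearest CHR begins at base 5 after the start, outside it. Ccnb1 had 2 CCAAT boxes and no CHR letters in its window, and Nuf2, Nusap1, Tacc3 and Birc5 had neither motif.

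**Figure D1:**
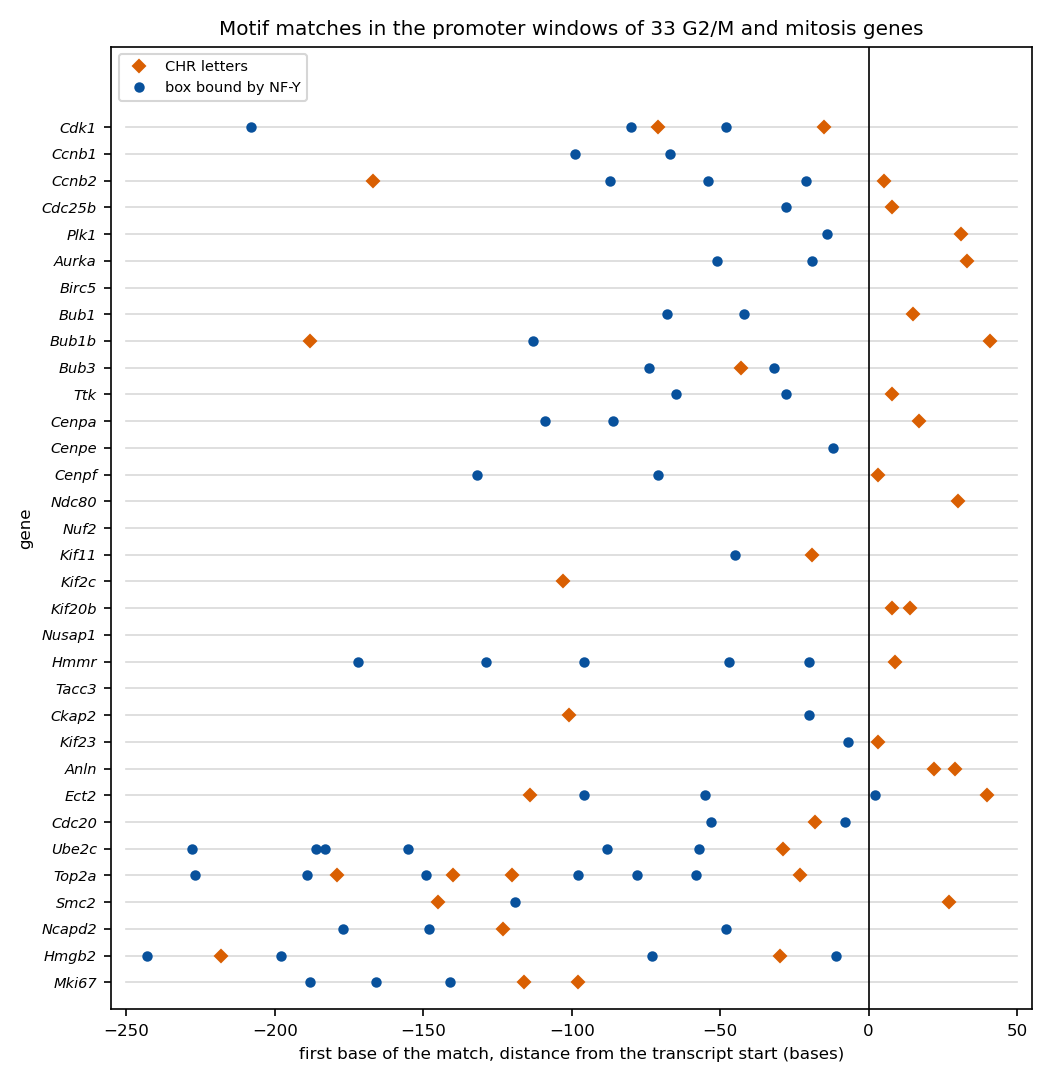
Position of CHR letters (orange diamonds) and of CCAAT, the box bound by NF-Y (blue circles), in the promoter windows of 33 members; the x axis is the distance of the first base of a match from the transcript start, in bases, and each line is 1 gene. Of the 39 CHR matches, 25 lie within 50 bases of the start, often to the right of a CCAAT box.

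Levels of the members are given as FPKM, the mean of 5 preparation means with their SD (n = 5), which corrects for transcript length. Among cyclins and their kinase, Ccnb1, cyclin B1, averaged 126 ± 37.2 FPKM and was at an FPKM of at least 1 in 97.5% of cells. Ccnb2, cyclin B2, averaged 143 ± 22 FPKM, and Ccna2, cyclin A2, 60.3 ± 10.9. Cdk1 averaged 43 ± 12.9 FPKM. The CDC25 phosphatases that activate CDK1 were more uneven: Cdc25c averaged 64.5 ± 22.9 FPKM and reached 1 FPKM in 70.1% of cells, while Cdc25b averaged 9.07 ± 5.90 and reached it in 22.7%. Cdc25b was the member detected in the fewest cells, and 204 cells had it at 0.

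Of the mitotic kinases, Aurkb, the catalytic subunit of the chromosomal passenger complex, averaged 81.1 ± 13.8 FPKM. Aurka, which acts at spindle poles, averaged 56.7 ± 12.9, and Plk1, polo-like kinase 1, 33.7 ± 5.94. Birc5 (survivin), the passenger complex subunit that tethers Aurkb to centromeres, was higher than these kinases at 122 ± 28.1. Plk1 and Aurka were detected in 66.9% and 71.9% of cells, Aurkb in 86% and Birc5 in 95%.

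The spindle checkpoint holds anaphase until chromosomes are attached. Bub3, a WD-repeat protein that binds Bub1 and Bub1b, had the highest level of all members, 182 ± 22.3 FPKM, and was at 0 in 7 cells. Bub1, the kinase that recruits checkpoint proteins to kinetochores, averaged 105 ± 21.6, Ttk (MPS1), the kinase that starts the signal, 78.2 ± 20.7, and Bub1b (BUBR1), part of the inhibitor of CDC20, 61 ± 7.26. At the centromere, Cenpa, the histone H3 variant that defines it, averaged 139 ± 33.9, and Ndc80, the microtubule-binding subunit of the outer kinetochore, 137 ± 26.3. Nuf2, the direct partner of Ndc80 in the same complex, was lower at 71.5 ± 20.6 and was detected in 78.4% of cells against 95.7% for Ndc80. Cenpe, a kinetochore motor, averaged 78.1 ± 13.6, and Cenpf, a large kinetochore and spindle protein, 75.8 ± 11.

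Spindle proteins ranged from Tacc3, which bridges kinetochore microtubules, at 97.3 ± 15.8 FPKM to Dlgap5 (HURP), a microtubule-bundling protein, at 18.1 ± 3.74. Between them lay Ckap2, Kif20b, Kif11, Kif2c, a microtubule-depolymerising kinesin, and Tpx2, the activator of Aurka, from 90.1 to 44.1 FPKM. Nusap1 and Hmmr, both spindle proteins that bind microtubules, averaged 31.9 ± 9.84 and 30.6 ± 12.6. In cytokinesis, Kif20a, a motor of the central spindle, led with 82 ± 28, followed by Kif23 (39.6 ± 7.29), a motor of the centralspindlin complex, Ect2 (32.1 ± 8.43), the RhoA exchange factor, and Anln (25.8 ± 3.91), anillin of the contractile ring. Ube2c, the E2 enzyme of the anaphase-promoting complex, averaged 158 ± 52.4 and Cdc20, its activator, 58.6 ± 13.8. Among chromosome proteins, Top2a, the topoisomerase that untangles sister chromatids, averaged 167 ± 13.6, and the condensin core subunits Smc4 and Smc2 averaged 148 ± 23 and 95.2 ± 10.4. Their condensin partner Ncapd2 averaged 32.4 ± 3.79, Hmgb2, a chromatin protein also found outside mitosis, 51.5 ± 12.6, and Mki67, the Ki-67 proliferation marker, 24.4 ± 1.62.

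Neighbours in this order often differed by less than their spread between preparations. Bub3, Top2a, Ube2c, Smc4 and Ccnb2, the 5 highest, ran from 182 to 143 FPKM with SDs of 13.6 to 52.4. Values of 9 members may include reads of a gene whose exons overlap on the opposite strand, since no use of strand is stated in the sources used here: Exosc9 overlaps Ccna2, Spef1 Cdc25b, Gm3550 Cdc25c, Gm44985 Plk1, Oip5 Nusap1, Tmem129 Tacc3, Cdc23 Kif20a, Elovl1 Cdc20 and Tnnc2 Ube2c. On the same strand, small genes overlap exons of Top2a and Ncapd2, and Ccnb1 and Ccnb2 have pseudogenes that bear their names, so these values are uncertain as well.

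The comparison of Q1 with Q4 asked whether the brightest and the dimmest cells differ in these genes. No member passed the test: 0 of 40 reached a limma adjusted p of 0.05 over all 10452 genes, where the background was 0.0765% (8 genes). At an unadjusted p under 0.05 there were 4 members, all higher in Q1: Mki67, Tpx2, Bub1b and Kif20b. That is 4 of 40 against a background of 10.4% of tested genes higher in Q1 at that threshold, so the members' share is that of all genes. Fitted differences of the mean log2(FPKM + 1) were above 0 for 37 of 40 members, against 69.5% of all genes, with a median of 0.25 against 0.17. The preparation means of Q1 and Q4 overlapped for 40 of 40 members. Overlap was not counted over all tested genes, so this count shows nothing particular to the members.

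Mki67 had the smallest p. Its mean log2(FPKM + 1) in preparations 1 to 5 was 4.66, 4.13, 3.57, 4.30 and 4.18 in Q1 and 4.36, 3.54, 2.06, 3.14 and 3.30 in Q4. Q1 was higher in 5 of 5 preparations, though the 2 groups of means overlapped. The fitted difference was 0.92 ± 0.32 (SE), with a 95% interval of 0.25 to 1.59 and a limma adjusted p of 0.272. On the linear scale the gene differed little: the Q1 average was 26.6 ± 2.96 FPKM and that of Q4 25.6 ± 12.8 (SD over 5 preparations). The Q4 mean held 1 high preparation, preparation 3 at 48.3 FPKM, where the other preparations lay between 18.1 and 22.9. The share of Q4 cells with an FPKM of at least 1 was 77.4 ± 21.5%, against 90.8 ± 6.99% in Q1, and in preparation 3 it was 42.9% against 81.8%.

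Tpx2 had mean log2 levels of 5.05, 4.78, 4.50, 4.77 and 4.73 in Q1 and 5.74, 3.62, 2.68, 4.21 and 3.83 in Q4, in the order of the preparations. The Q1 means lay close together, while Q4 ran above all of them in preparation 1 and below all of them in the others. The fitted difference was 0.91 ± 0.36 (limma adjusted p = 0.322; higher in 4 of 5 preparations). Bub1b averaged 5.31, 5.46, 4.12, 4.98 and 5.46 in Q1 and 5.07, 5.61, 3.93, 4.24 and 3.91 in Q4, a fitted difference of 0.66 ± 0.29 (limma adjusted p = 0.375; 4 of 5). The groups overlapped, with preparation 2 slightly higher in Q4. Kif20b, a kinesin of late mitosis, differed by 0.73 ± 0.35 (limma adjusted p = 0.427), Nuf2 by 0.73 ± 0.41 (0.521) and Cdc20 by 0.69 ± 0.40 (0.538), each in 3 or 4 of 5 preparations. Smc4 was the only member besides Mki67 that was higher in Q1 in 5 of 5 preparations, at 0.26 ± 0.25. The share of all tested genes with that pattern was not counted.

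Of the mitotic kinases, Aurka lay below the members' median, at 0.10 ± 0.58 (SE). Cdk1, Plk1, Aurkb and cyclin A2 lay above it without passing either threshold. Cdk1 differed by 0.51 ± 0.35, Plk1 by 0.50 ± 0.43, Aurkb by 0.50 ± 0.42 and Ccna2 by 0.48 ± 0.34. Smaller values were fitted for several of the most abundant members. Ccnb1 differed by 0.16 ± 0.26, Ccnb2 by 0.07 ± 0.26, Top2a by 0.12 ± 0.30, Cenpa by 0.18 ± 0.25 and Ube2c by 0.14 ± 0.29. Bub3 differed by 0.31 ± 0.28, Tacc3 by 0.23 ± 0.26 and Kif20a by 0.29 ± 0.30. Cenpf (-0.08 ± 0.24), Birc5 (-0.04 ± 0.25) and Cdc25b (-0.03 ± 0.28) were the 3 members with a fitted value below 0. By role, medians ran from 0.18 for centromere and kinetochore genes (5 members) through 0.20 for cyclins, CDK1 and CDC25 (6), 0.23 for chromosome proteins (6), 0.24 for cytokinesis (4), 0.29 for kinesins and spindle proteins (9) and 0.30 for kinases and Birc5 (4) to 0.41 for Cdc20 and Ube2c and 0.44 for the checkpoint (4). No role held a member that passed the adjusted test.

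The direction depended on how cells were averaged. The mean FPKM was higher in Q1 for 18 of 40 members, against 49.9% of all genes, with a median log2 ratio of -0.01, whereas the share of cells with an FPKM of at least 1 was higher in Q1 for 34 of 40, against 72.4% of all genes. Fitted on the log2 of the mean FPKM, an alternative added after the data were seen, 20 members lay above 0 and 20 below. Their median was 0.01, against 0.06 for all genes. Detected genes were also fewer in Q4, as given above. With the mean number of detected genes as a covariate, 18 members were above 0 and 22 below, and 0 had an unadjusted p under 0.05. The median was then -0.04, against -0.02 for all genes. Without the 6 cells that held markers of other cell types, 0 members were called and 4 had an unadjusted p under 0.05. There the median was 0.27, against 0.17 for all genes. The shares of all genes above 0 or under that threshold were not counted for these alternatives.

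**Figure D2:**
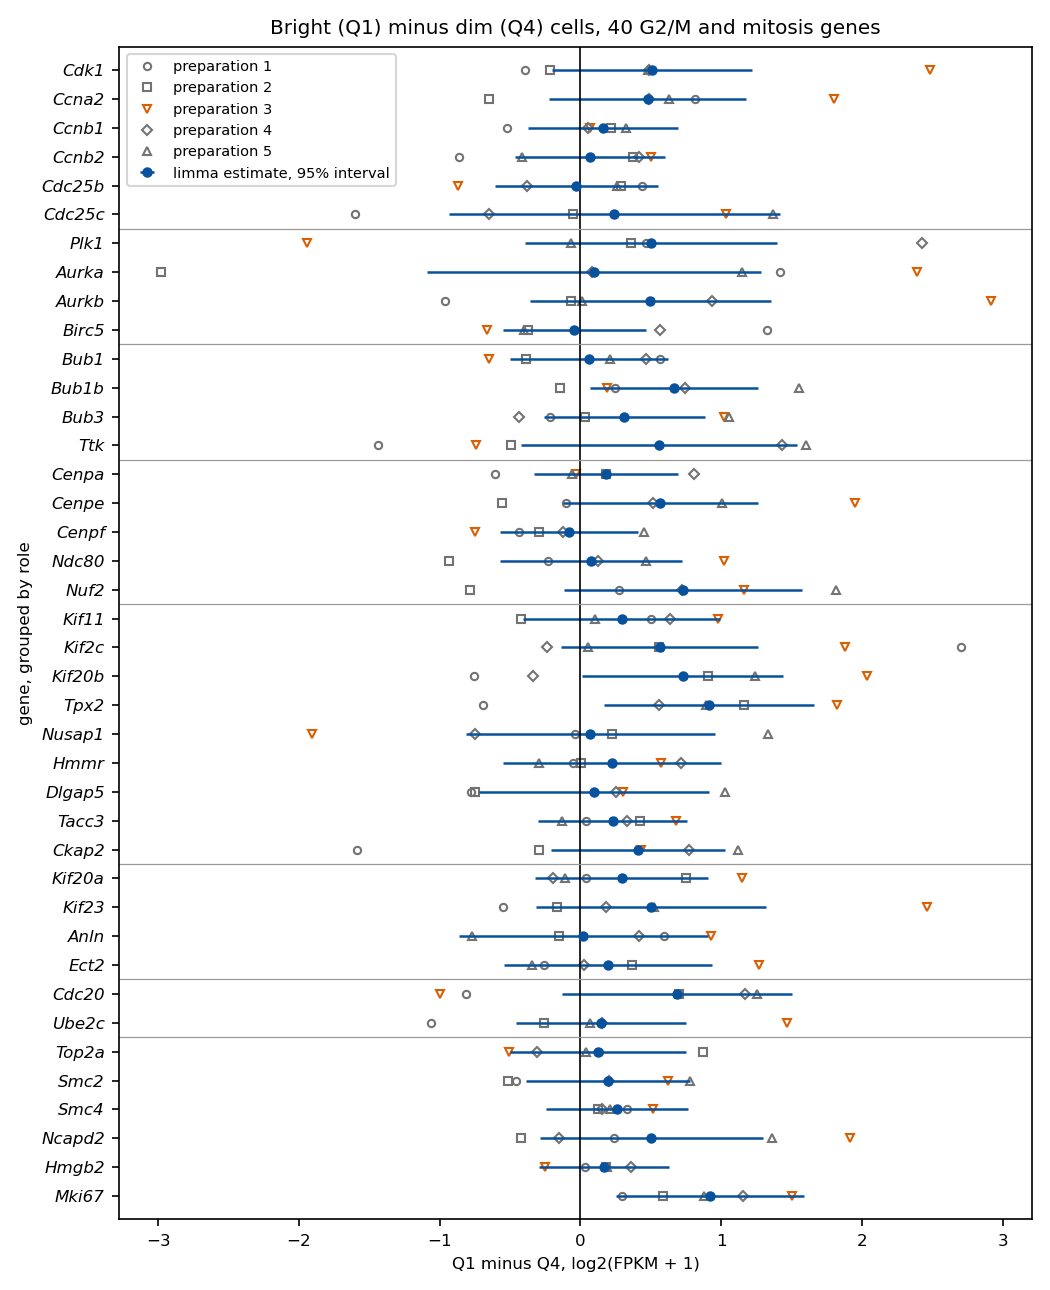
Q1 minus Q4 difference of mean log2(FPKM + 1) for the 40 members, grouped by role, with the fitted value and its 95% interval and the difference within each of the 5 preparations as small points. The fitted values run from -0.08 (Cenpf) to 0.92 (Mki67), and the preparations of most genes fall on both sides of 0.

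The slope over all 4 quartiles called no member either. The slope per quartile step toward Q1 passed the adjusted test for 0 of 40 members (background 0.134%), and 3 members had an unadjusted p under 0.05, all rising toward Q1 (background 11% rising and 1.24% falling): Bub1b, Mki67 and Tpx2. Bub1b had the smallest p, with 0.27 ± 0.09 per step (limma adjusted p = 0.217). Slopes were above 0 for 38 of 40 members against 69.8% of all genes, with a median of 0.07 against 0.05. Mki67 stepped down from 4.17 in Q1 to 3.92 in Q2, 3.59 in Q3 and 3.28 in Q4 (mean log2 of 5 preparations). Without the 6 cells with markers of other cell types, 0 members passed and 4 had an unadjusted p under 0.05, a share not counted over all genes. Ccnb1 was level, at 6.41, 6.40, 6.20 and 6.38, and so was Ccnb2, at 6.38, 6.27, 6.29 and 6.37.

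Between neighbouring quartiles no member passed the adjusted test, and nor did any other gene (0 of 10452 in each of the 3 steps). From Q2 to Q1, Hmmr was 0.76 ± 0.36 higher in Q1 and Bub1 0.56 lower (-0.56 ± 0.26), the only members at an unadjusted p under 0.05 (2 of 40, background 4.08%, of which 2.24% higher and 1.84% lower in Q1; both limma adjusted p = 0.999). Between Q2 and Q3, Bub1b (0.74 ± 0.28) and Top2a (0.64 ± 0.29) were higher in Q2 and Aurkb (-1.01 ± 0.40) lower (3 of 40, background 4.68%, of which 2.75% higher and 1.93% lower in Q2; limma adjusted p = 0.974). Between Q3 and Q4, Kif20a (0.68 ± 0.30), Bub3 (0.59 ± 0.28), Nuf2 (0.88 ± 0.41) and Tpx2 (0.77 ± 0.36) were higher in Q3 (4 of 40, background 7.4%, of which 6.64% higher in Q3; limma adjusted p from 0.642 to 0.665). Neighbouring steps share the quartile between them. Aurkb, for example, stood at 5.30, 4.49, 5.62 and 4.73 from Q1 to Q4, up and down by turns with no order by brightness. Fitted values were above 0, that is higher in the brighter quartile, for 19, 27 and 26 of 40 members in the 3 steps, against 51%, 54.8% and 67.4% of all genes. The medians of the 3 steps were -0.06, 0.08 and 0.24, against 0.01, 0.03 and 0.14 for all genes.

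**Figure D3:**
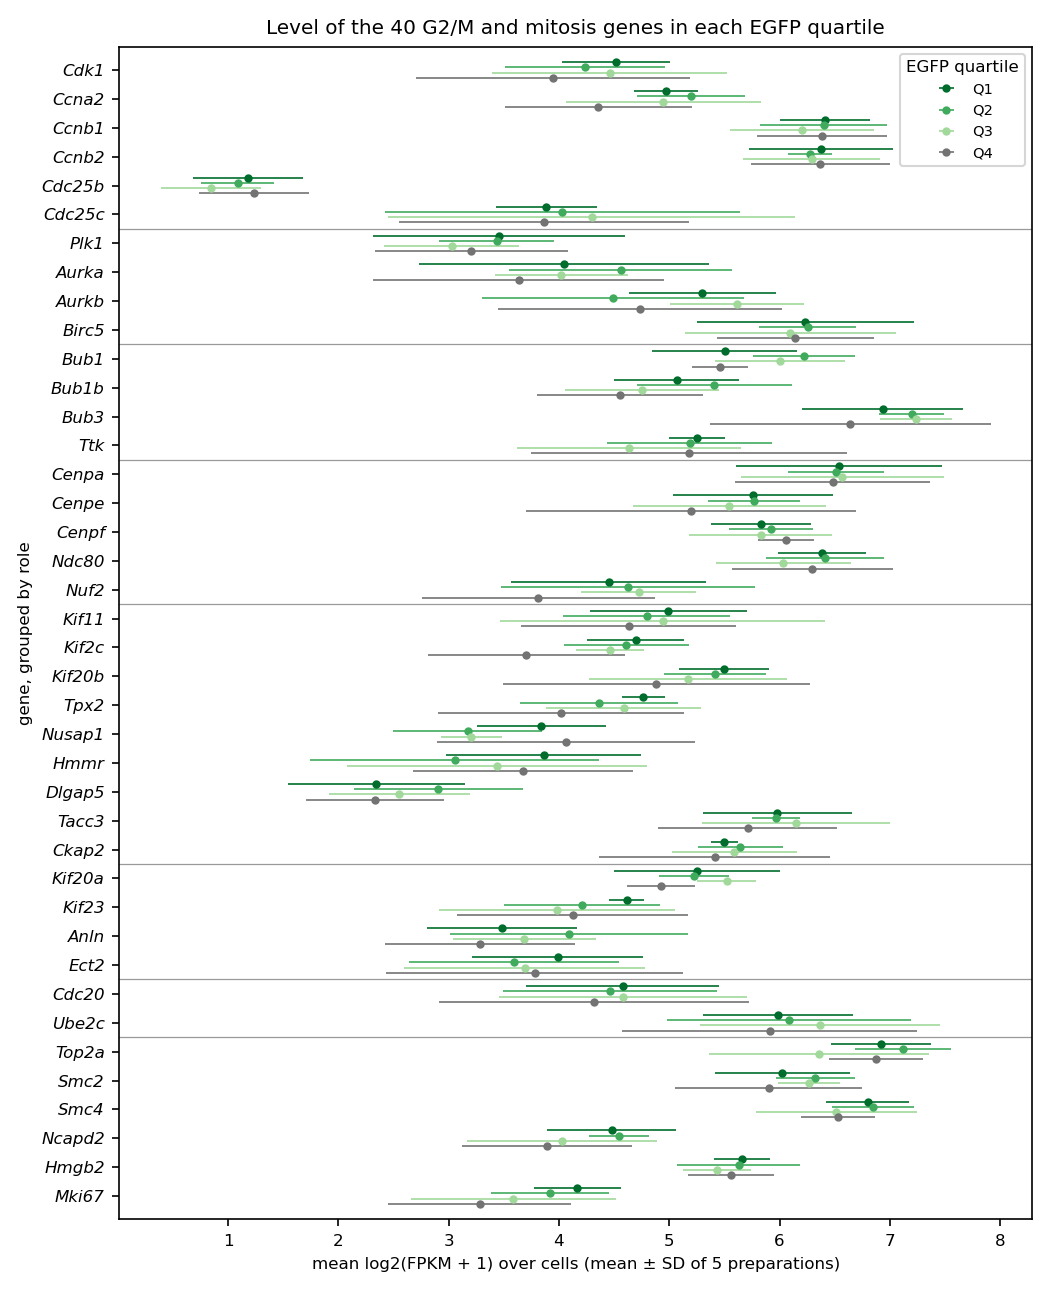
Mean log2(FPKM + 1) of each member in each quartile, grouped by role, with points for the mean of 5 preparation means and bars for their SD. For most genes the 4 quartiles overlap within their SDs, while genes differ from each other by several log2 units, from Cdc25b near 1 to Bub3 and Top2a near 7.

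Preparations differed in the members as they did in other genes. Of the 40 members, 33 had their lowest mean log2 level in preparation 3, where 68.7% of tested genes were lowest, and 22 had their highest in preparation 1 (45% of genes). The mean over the 40 members was 5.34, 4.97, 4.21, 5.05 and 5.10 in preparations 1 to 5. Estimated depth does not follow this order, with preparation means of 396300, 551713, 741568, 653592 and 697991 fragments per cell. The low levels of preparation 3 went with its low number of detected genes, and the part of either in the other was not tested. For single members, cells of the same preparation and quartile held most of the variance of log2(FPKM + 1): from 83.4% to 95.5%, with a median of 89.9%.

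The module mean, the average of log2(FPKM + 1) over the 40 genes in a cell, sums up each cell. It ran from 1.58 to 7.35 with a median of 5.03 and an SD of 0.99. Of its variance, 84.6% lay between cells of the same preparation and quartile, 9.78% between preparations and 5.61% between quartiles within preparations. Mitotic transcripts were widespread: a cell had between 11 and 40 of the members at an FPKM of at least 1, with a median of 36. All 40 were present in 24 cells, at least 30 in 229 cells, and fewer than 20 in 6 cells, 5 of them of preparation 3. The labels give no measure of cell cycle phase, so a limit set on the module mean is a range and not a cell type. Among single genes the spread over cells went from an SD of 0.76 on the log2 scale for Hmgb2, detected in 99.6% of cells, to 2.98 for Cdc25c.

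From Q1 to Q4 the module mean of the quartiles was 5.04 ± 0.33, 5.03 ± 0.33, 4.93 ± 0.61 and 4.76 ± 0.59 (SD over 5 preparations). Q1 minus Q4 was -0.10, -0.07, 0.69, 0.34 and 0.52 in preparations 1 to 5, a mean of 0.28 ± 0.35 (SD) with Q1 higher in 3 of 5. The mean over all tested genes in the same cells differed by 0.19 ± 0.14. Without the 6 cells with markers of other cell types the quartiles were at 5.02 ± 0.34, 5.03 ± 0.34, 4.91 ± 0.60 and 4.69 ± 0.51, and Q1 minus Q4 was 0.33 ± 0.32, with Q1 higher in 4 of 5 preparations. The preparation values of Q1 and Q4 overlapped, and the difference was smaller than its SD over preparations with all cells and about equal to it without the 6.

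A cell was counted as high when its module mean was at or above 5.74, the 75th percentile over all cells, which gave 70 high cells. There were 19 cells within 0.1 of that limit. From Q1 to Q4 the share of high cells was 24.9 ± 11.5%, 19.4 ± 16.9%, 25.7 ± 11.4% and 21.4 ± 4.83% (SD over 5 preparations). In preparations 1 to 5 it was 25, 18.8, 9.09, 35 and 36.8% in Q1 and 25, 20, 14.3, 26.7 and 21.1% in Q4. Q1 exceeded Q4 in 2 of 5 preparations, the 2 with the most cells, and the mean difference was 3.54 ± 8.44 percentage points (SD). The difference was smaller than its spread over preparations. Of all cells of a preparation, 23.1, 19.4, 8.11, 32 and 32.1% were high.

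With the limit at the 90th percentile the sign turned, to -5.87 percentage points, with 15.3 ± 5.60% of Q4 cells and 9.42 ± 5.72% of Q1 cells above it. With the limit at the 75th percentile of each preparation it was 6.50, and after subtracting each cell's mean over all tested genes it was -1.52. Without the 6 cells with markers of other cell types it was 8.62 ± 19.7. Of Q4, 1 cell was left out, and the lowest share of a Q4 preparation went from 14.3% to 0%. The share of high cells among all Q4 cells pooled was 21.7% before and 22% after. Of those 6 cells, 4 were high. In 1 of them, a high cell of Q3, 8 of the 12 Sertoli markers were present with a summed 1234 FPKM, beside all 13 germ cell markers. The summed Sertoli markers averaged 24.1 FPKM in high cells and 7.75 in the others, and 6.57 in high cells without that cell. High cells had more detected genes, 6603 against 5925, and a lower estimated depth, 586189 against 646046 fragments. Across the 278 cells, with preparation and quartile means removed, the module mean correlated with detected genes (Pearson's r = 0.59) and hardly with depth (r = -0.14). These are descriptions over cells that share chips and preparations, and the part of detected genes in the module mean was not tested.

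**Figure D4:**
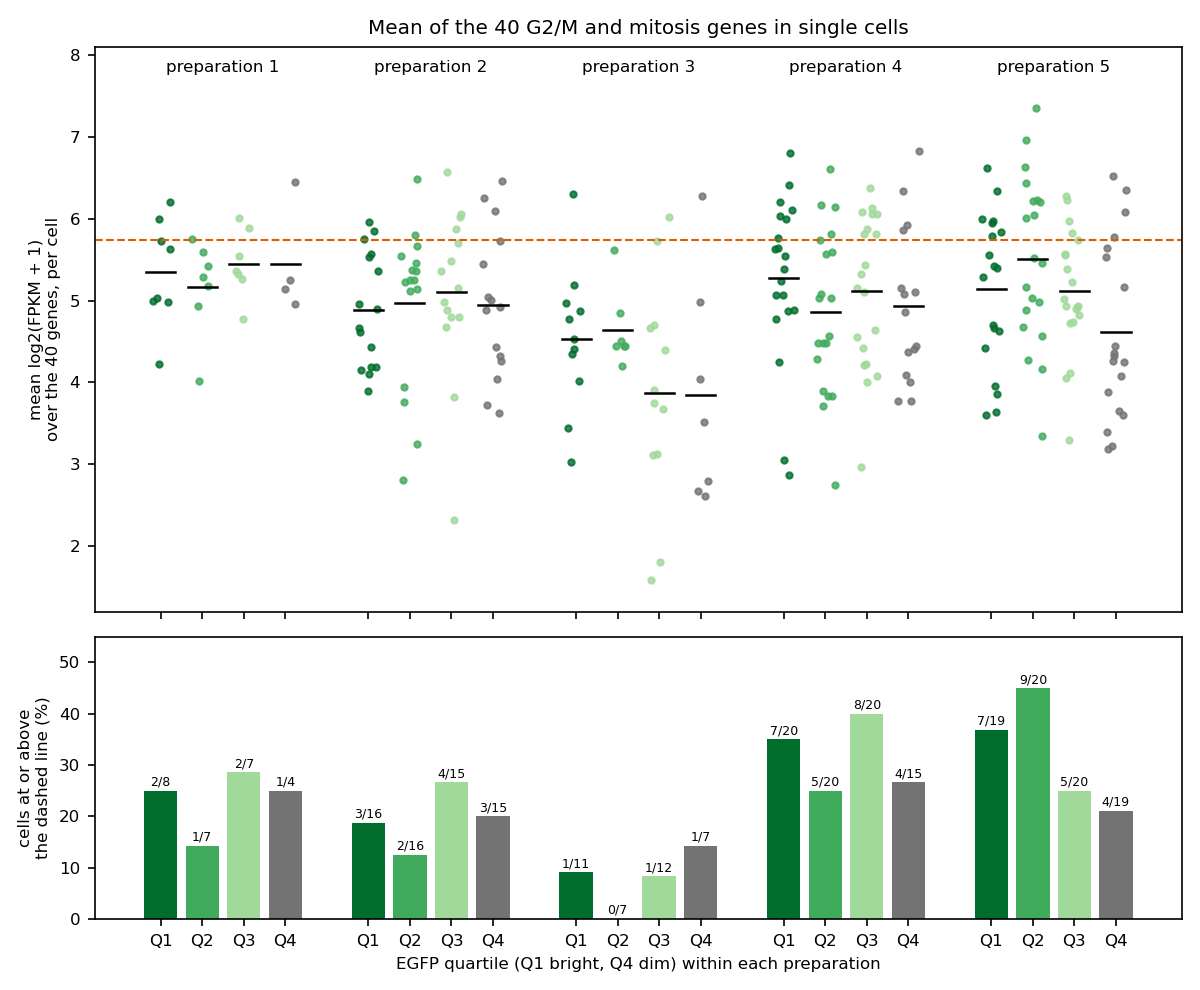
Upper panel: module mean of every cell, in log2(FPKM + 1), by EGFP quartile within each of the 5 preparations, with a short line at each group's mean and a dashed line at the limit of 5.74 for a high cell. Lower panel: share of high cells in percent, with the numbers of cells above each bar; Q1 exceeds Q4 in preparations 4 and 5, and preparation 3 has 3 high cells in all.

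The members rose and fell together from cell to cell. After the mean of each preparation and quartile had been removed, the 780 pairs of members had a median Pearson's r of 0.18 over 278 cells, from -0.10 to 0.52, and 759 pairs were above 0. Subtracting each cell's mean over all tested genes left a median of 0.14, with 729 pairs above 0. Pairs among other genes were not counted. The closest pairs were Ccnb1 with Cenpf (0.52), Ccnb1 with Tpx2, Aurka with Ube2c, Ccnb1 with Top2a (each 0.47) and Aurka with Kif20a (0.46). These values are descriptions: the points share chips, libraries of like detection and a gene's own noise, and most pairs of single genes are weak.

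Against the mean of the other 39 members, each gene's r was 0.41 at the median. Ccnb1 was highest at 0.63, followed by Tpx2, Top2a, Kif20a, Nusap1, Ube2c and Aurka from 0.58 to 0.56. The lowest were Nuf2 (0.22), Ccnb2 (0.25), Cdc25b (0.25), Smc4 (0.26) and Smc2 (0.27). For the 10412 other tested genes, r with the mean of the 40 members had a median of 0.07 and a 95th percentile of 0.22, and 40 of 40 members lay above that percentile. The B-type cyclins lay far apart in this order, Ccnb1 first and Ccnb2 next to last, although they were found in 97.5% and 95% of cells and at 126 and 143 FPKM. The difference between their r was not tested. Bub1b, with the smallest p for the slope over quartiles, had an r of 0.28. Over the 272 cells without markers of other cell types, pairs had a median r of 0.18 (from -0.10 to 0.52), and the r of single members had a median of 0.41, from 0.21 to 0.63, with Ccnb1 at 0.63 and Ccnb2 at 0.24. By role, the median r was highest for Cdc20 and Ube2c (0.51) and for kinesins and spindle proteins (0.49) and lowest for chromosome proteins (0.30) and cyclins, CDK1 and CDC25 (0.32).

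**Figure D5:**
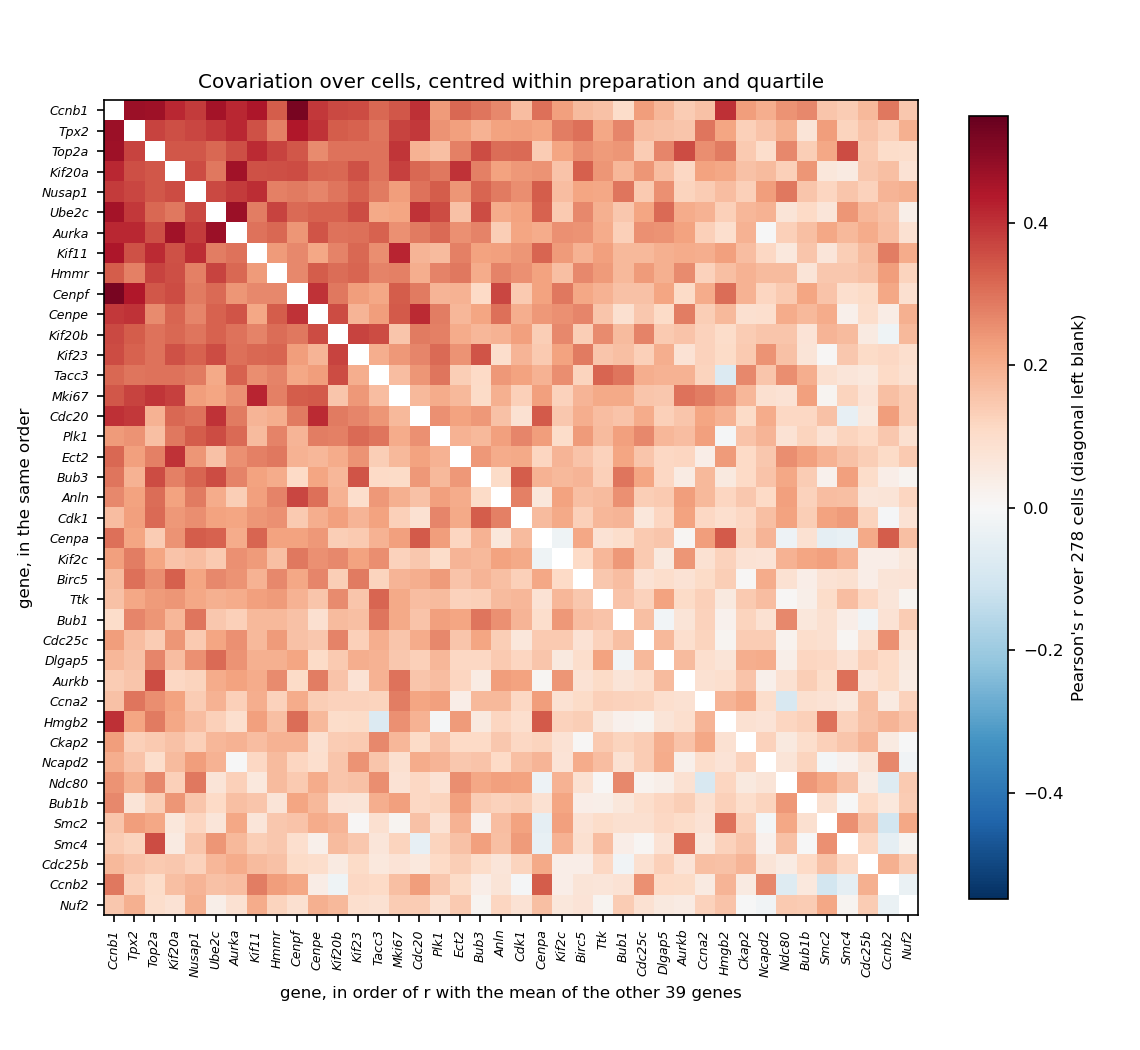
Pearson's r between members over 278 cells, with preparation and quartile means removed, in order of each gene's r with the mean of the other 39; red is positive and blue negative. The strongest pair is Ccnb1 with Cenpf, at 0.52. Ccnb1, Tpx2, Top2a, Kif20a, Nusap1, Ube2c and Aurka open the order, and Ccnb2 and Nuf2 close it.

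Among the genes outside the 40 and outside the pathway lists whose pattern was most like the module mean, by r over 278 cells, were Kpna2 (0.47), Arl6ip1 (0.47), Cdca3 (0.40), Fam83d (0.40), Atg5 (0.38), Mageb4 (0.38), Hn1 (0.38), Malat1 (0.36) and Dbf4 (0.36). With each cell's mean over all tested genes subtracted, Arl6ip1, Kpna2, Cdca3, Fam83d and Atg5 ranked 1, 3, 4, 5 and 7. Malat1, Dbf4, Hn1 and Mageb4 then ranked 11, 12, 14 and 31. Kpna2 encodes an importin alpha, Cdca3 a trigger of mitotic entry and Fam83d a spindle protein. Mageb4 is an X-linked germ cell gene. None of the genes named passed the comparison of Q1 with Q4, with limma adjusted p from 0.581 to 0.971.

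Other genes of the pathway, listed by name, followed the members to different degrees. The median r with the module mean was 0.29 for 27 other kinesins, spindle and cytokinesis genes, led by Prc1, the central spindle bundler (0.61). It was 0.18 for 17 regulators of CDK1, led by the CDK-binding subunit Cks2 (0.50), and 0.17 for 34 other kinetochore genes, led by Incenp, the scaffold of the chromosomal passenger complex (0.46). For cohesin, separase and other condensin subunits it was 0.15, for subunits and inhibitors of the anaphase-promoting complex 0.13, and for MuvB, FOXM1 and E2F regulators 0.09, where Foxm1 reached 0.32. For 44 DNA replication and G1/S genes it was 0.07, and the G2/M and G1/S means had an r of 0.18, which was -0.10 after each cell's mean over all tested genes had been subtracted.

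In the comparison of Q1 with Q4, 0 genes of these lists passed the adjusted test, against the background of 0.0765%. At an unadjusted p under 0.05 (background 10.4% higher and 1.03% lower in Q1), 8 of 19 cohesin and condensin genes were higher in Q1 and 0 lower, with a median of 0.50, and Pds5a, a cohesin regulator, had the smallest p (1.30 ± 0.33, limma adjusted p = 0.136). Of the anaphase-promoting complex genes, 3 of 19 were higher, with Cdc16, a subunit of its core, at 1.52 ± 0.45 (limma adjusted p = 0.183). MuvB and E2F regulators had 1 of 16 higher (E2f4, a DREAM subunit, 0.71 ± 0.31), kinetochore genes 1 of 34 higher (Cenpq, 1.05 ± 0.39) and 1 lower, other kinesins 1 of 27 higher (Kif18a, 0.92 ± 0.43), and CDK1 regulators 0 of 17. Foxm1, the activator of G2/M genes, lay at -0.54, the lowest of its list, without passing either threshold. DNA replication and G1/S genes had 14 of 44 higher and 0 lower, with a median of 0.51, where the 40 G2/M genes had 4 and a median of 0.25; the difference between the lists was not tested.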

How the data were processed

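The deposited matrix holds 1 FPKM value per gene and cell, made by the authors. TopHat, Cufflinks, FastQC, Picard and the mm10 (GRCm38) genome are named in the submitters' processing notes, with versions and settings not given in the sources used here. The header names no unit, which was therefore taken from the quantifier's name and the range of values. Per the labels' protocols, cDNA of each cell was brought to equal mass before tagmentation, so FPKM measure shares of a cell's RNA. FPKM are not counts, and no count model was used; an exact 0 can be a missed molecule.

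Cells were not treated as replicates. For each of 20 combinations of preparation, read from the run number in the titles, and quartile, the mean of log2(FPKM + 1) (pseudocount 1) was fitted with limma 3.58.1 in R 4.3.3 (trend on, weighted by cells, preparation as a block, 12 residual degrees of freedom), with two-sided tests and Benjamini-Hochberg adjustment over the 10452 genes for which 10% or more of cells had an FPKM of at least 1. The numbers pair the means: across genes, deviations from the quartile mean correlated at a median of 0.19 in the 30 pairs from the same preparation (lowest 0.08) and of -0.09 between preparations. These correlations show that means of the same run are alike, and cannot show that each run is 1 preparation. Whether preparations came from separate litters is not stated, and p-values also hold the sampling of cells. The largest correlation between 2 cells was 0.692, so none was a duplicate. Depth was estimated from the steps between low FPKM values, and in 266 of 278 cells 2 separate sets of the genes gave estimates within 1.25-fold.

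The members, lists, roles and tests were chosen with earlier results of these data known. Members are named for the smallest p, the highest FPKM, the highest level in their role, or as the remaining genes of a role; outside genes by r with the module mean, of which 1 is not reported here. Coordinates of genes are from GENCODE M21 and promoters from RefSeq. Python 3.11.15 with pandas 2.3.3, numpy 2.4.6, scipy 1.17.1 and matplotlib 3.10.9 was used. Alternatives were the pseudocount, filter, scaling, block, covariate, weights, each preparation left out, the limits of a high cell and, added after the data were seen, log2 of the mean FPKM and leaving out 6 cells with markers of other cell types.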

Additional observations from a re-analysis of the deposited data

Results flagged for a closer look

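Of 114 groups of 5 preparation means checked, 8 held a value whose gap to the nearest other exceeded 0.71 of the range, Dixon's 95% limit for 5 values. Chance sets about 1 in 20 groups apart, and the groups share preparations. In 7 of them the value was preparation 3, low in mean log2(FPKM + 1): Mki67 in Q3 at 1.97 against 3.61 to 4.15 in the other preparations, Top2a in Q3 at 4.64 against 6.54 to 7.21, Smc4 in Q3 at 5.24 against 6.72 to 7.12, Cenpa in Q3 at 5.00 against 6.63 to 7.25, Bub1b in Q2 at 4.17 against 5.56 to 5.84 and Bub3 in Q1 at 5.65 against 7.11 to 7.49. The module mean in Q3 was 3.87 there, against 5.10 to 5.45. Preparation 3 also had the fewest detected genes per cell (4437), and its part in these values was not tested. Smc4 in Q4 was high in preparation 1, at 7.11 against 6.29 to 6.51, in a group of 4 cells.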

How the results depend on the processing

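No member passed the limma adjusted test in any of the 5 comparisons under any of the 14 alternatives. Members at an unadjusted p under 0.05 between Q1 and Q4 numbered 0 to 7 (4 as reported): 7 after scaling to a common 75th percentile, 2 with unweighted means, 1 with no replicate block, and 0 both with detected genes as a covariate and on log2 of the mean FPKM. For the slope they numbered 0 to 10 (3 as reported), with 10 after the common scaling. The share of all tested genes at that threshold was not counted under the alternatives, so these counts show nothing particular to the members. That scaling put 40 of 40 members above 0, with a median of 0.42 (all genes 0.26). The fit with no replicate block gave a median of 0.24 (all genes 0.16). Mki67, Tpx2, Bub1b, Kif20b and Cdc20 kept their sign under all alternatives. With the covariate they shrank to 0.31, 0.27, 0.11, 0.19 and 0.25, and on log2 of the mean FPKM to 0.32, 0.35, 0.38, 0.17 and 0.41. Under others they grew, to at most 1.26, 1.24, 0.93, 1.09 and 0.98. With unweighted means Cdc20 was 0.26. Leaving out 1 preparation gave 0.83 to 1.03 for Mki67, 0.77 to 1.03 for Tpx2, 0.28 (without preparation 5) to 0.93 for Bub1b, 0.47 (without 5) to 1.09 (without 4) for Kif20b, 0.44 (without 5) to 0.92 for Cdc20 and 0.25 (without 5) to 1.199 (without 2) for Nuf2.

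Other named members changed sign between Q1 and Q4. With detected genes as a covariate, Nuf2 was -0.018, Top2a -0.11, Ube2c -0.50, Smc4 -0.41, Ccnb2 -0.0057, Ccnb1 -0.41, Kif20a -0.12 and Birc5 0.15. On log2 of the mean FPKM, Nuf2 was -0.14, Bub3 -0.044, Top2a -0.049, Ube2c -0.14, Smc4 -0.012, Ccnb2 -0.21, Tacc3 -0.064 and Kif20a -0.058. Birc5 was 0.14 after the common scaling and 0.090 with unweighted means. With 1 preparation left out, Birc5 ranged from -0.26 to 0.11, Bub3 from -0.0099 (without preparation 5) to 0.57, Top2a from -0.10 (without 2) to 0.27, Ube2c from -0.070 (without 3) to 0.26, Ccnb2 from -0.064 (without 4) to 0.25 and Cenpa from -0.040 (without 4) to 0.28. The Q1 minus Q4 share of high cells was -5.87 percentage points at the 90th percentile and 1.93 to 4.42 with 1 preparation left out. At about 0.808 FPKM per fragment, a 0 in a rare member such as Cdc25b need not mean absence. The causes were not tested.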
